A study of Mus musculus with 6 samples.

Results

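The genes described here encode ATP-binding cassette (ABC) proteins of subfamilies a to g. They were taken by name: a gene belonged if the array annotation gave 1 of its probe sets a single symbol made of Abc, a letter from a to g and a number. This rule found 45 genes with 92 probe sets among 18193 genes named in this way, and 1 probe set stood for each gene, that of the highest mean over all 6 arrays. The rule itself uses no measured difference, although it was chosen with earlier results of these data known. The RefSeq table of the mouse lists 50 genes of this name pattern; those without such a probe set are not analysed here. By subfamily there were 14 genes of a, 8 of b, 10 of c, 3 of d, 1 of e, 3 of f and 6 of g.

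Most ABC proteins use ATP to move lipids, sterols, drugs, peptides or metabolites across a membrane. Full transporters carry both membrane parts and both ATPase parts in a single chain, and smaller ones work as dimers. Subfamilies e and f lack membrane spans and act at the ribosome. In bone marrow the family is best known for dye and drug efflux: primitive haematopoietic cells expel the dyes Hoechst and rhodamine through the pumps encoded by Abcg2 and by Abcb1a and Abcb1b, which gives the side population and the rhodamine-dull fraction of flow cytometry.

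Haematopoietic stem cells (HSCs) came from SCL-tTA H2B-GFP mice, in which a transactivator expressed from the endogenous scl locus drives a histone H2B and green fluorescent protein fusion until doxycycline shuts it off. The transactivator acts in embryonic and adult stem and progenitor cells, so cells that never made the fusion are GFP-negative too. All samples shared this genotype, 170 days of doxycycline and a bone marrow gate that was CD34-, CD48- and lineage-negative and positive for CD150, Sca1 and cKit. Label-retaining cells (LRC, 3 samples) were GFP+ and non-LRC (3 samples) were GFP-negative. The question was which ABC genes differ between cells that kept the label and cells that did not. The labels used here give neither age nor pooling of mice. They call the 3 samples of a group independent without tying them to animals, so p-values measure the spread between these samples.

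The 6 arrays had medians of 4.33 to 4.39 (log2). Spiked hybridization controls were at 11.24 and 11.02 on LRC replicates 1 and 3 and at 10.58 to 10.70 on the other 4 arrays. Both bright arrays were LRC, so adjustment for the controls leans on LRC replicate 2. Control level and group cannot be told apart in it. LRC replicate 1 also had the widest gap between the 3′ and 5′ control probe sets of Gapdh, at 4.16 against 2.72 to 3.42, which is a sign of how far cDNA reached along the transcript. The same gap of Actb was -0.04 on this array and -0.61 to -0.13 on the others, with no 3′ excess on any array. This array stood apart over all genes too: its closest match among the other arrays was at r = 0.919 over probe sets, while every other array had a match of at least 0.941. It was the highest or lowest of the 6 arrays for 49.9% of all genes, against 25.2% to 33.8% for each other array, and for 19 of the 45 ABC genes (42.2%). Xist, the X-inactivation RNA, was at 11.65 and 11.58 on replicate 2 of non-LRC and of LRC and at 3.54 to 5.13 on the others, so each group held 1 array with high Xist, and the labels used here give no sex. Of the gate genes, Kit was at 9.0 to 9.1 on every array and Cd48 at 2.34 to 3.27. Slamf1, which encodes CD150, read 7.20, 8.26 and 8.48 in the non-LRC samples and 6.24, 7.76 and 8.83 in the LRC samples. Cd34, negative in the gate, spanned 5.62 to 7.43 in the non-LRC samples and read 2.52, 6.97 and 5.10 in the LRC samples. In such bulk samples, fewer cells of a type and less RNA per cell cannot be told apart.

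No ABC gene passed the test between LRC and non-LRC. Limma called 0 of 45 genes at an adjusted p under 0.05, and it called 0% of all 45037 probe sets. The smallest adjusted p among ABC genes was 0.998. An unadjusted p under 0.05 was reached by 3 genes, Abcc2 and Abcb1a higher and Abcf1 lower in LRC, which is 6.67% of the family where 3.75% of all genes reached it. The groups did not overlap for 3 genes that were higher in LRC (Abcb1a, Abcc2 and Abcb11; 6.67%, against 4.71% of all genes) and for 4 that were lower (Abcf1, Abcf2, Abca12 and Abcg5; 8.89%, against 3.62% of all genes). With so few genes these shares are a description and carry no test. Of these 7 genes, 4 (Abcc2, Abcb11, Abca12 and Abcg5) had a mean below the 40th percentile of all probe sets, 3.80 on the log2 scale, where background makes up much of the signal.

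The median difference over the 45 genes was -0.01 (log2, LRC minus non-LRC), and over all genes it was 0.03. In LRC 22 ABC genes had a higher mean and 23 a lower one, with differences from -0.96 to 0.86. Of the 31 genes with a mean at or above the 40th percentile, 13 were higher and 18 lower (median -0.14, against 0.004 over the 12455 genes of that kind), and of the 14 below it 9 were higher and 5 lower (median 0.13). Subfamily medians were 0.13 for a, -0.14 for b, -0.07 for c, -0.33 for d, -0.90 for f and 0.22 for g. Precision was limited by the number of arrays. The 95% interval of a gene's difference reached a median of 0.65 to either side, and for 25 of the 45 genes it lay wholly within 1 of 0, the size of a 2-fold change. For the other 20 genes the interval included a 2-fold difference or more. Replicates of LRC spread more than those of non-LRC for 29 genes, 64.4% of the family, much as for 62.8% of all genes.

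**Figure D1:**
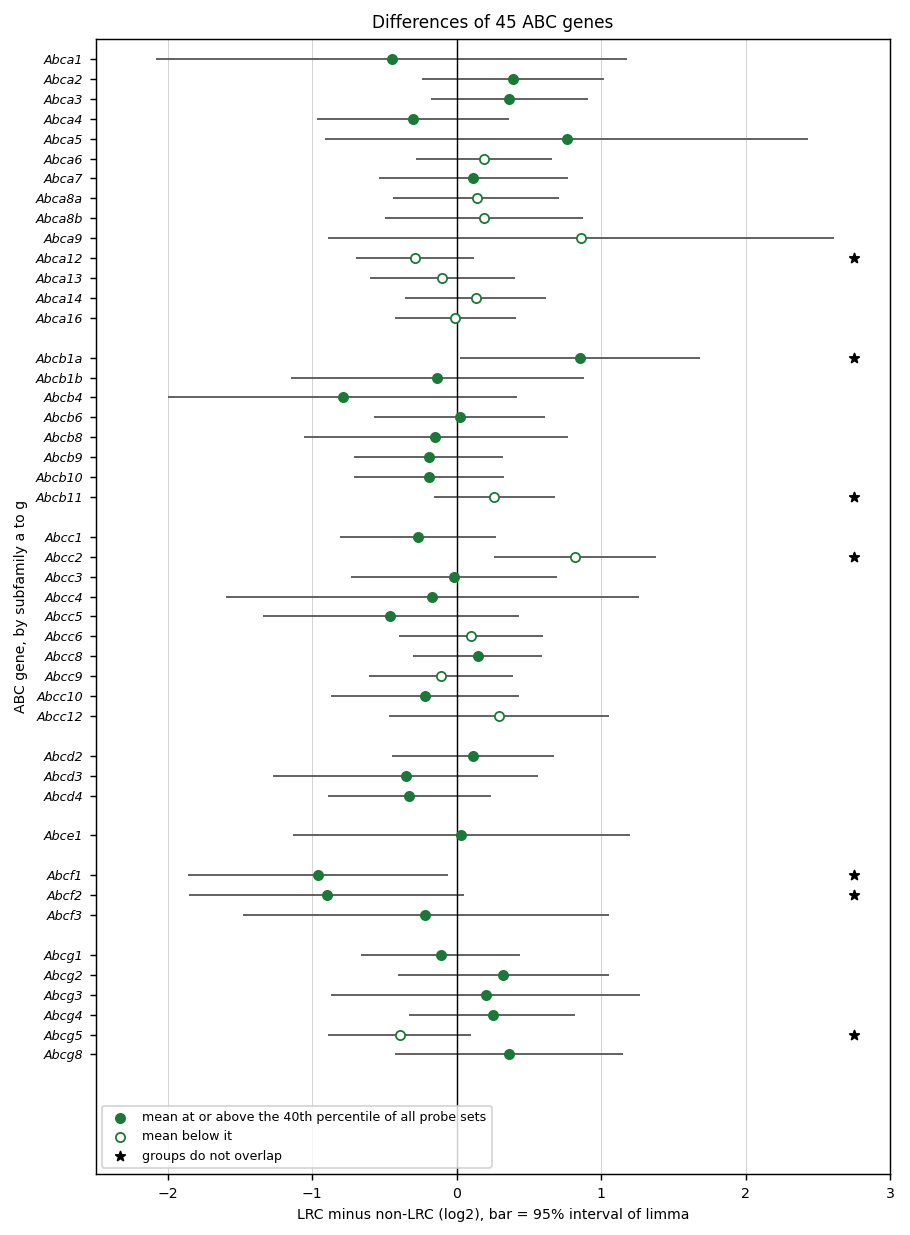
Difference of each ABC gene between LRC and non-LRC (x axis, log2), genes in rows by subfamily, with limma's 95% interval as a bar. Filled points are the 31 genes with a mean at or above the 40th percentile and stars mark the 7 genes whose groups do not overlap; 42 of the 45 bars cross 0.

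Of 9 measured pumps of subfamilies b, c and g, 3 had a higher and 6 a lower mean in LRC, 0 were called, and the median difference was -0.14 against 0.03 over all genes. Abcg2, the breast cancer resistance protein that gives HSCs their side population, read 7.24, 7.81 and 6.75 in the non-LRC samples (replicates 1 to 3) and 7.61, 7.72 and 7.42 in the LRC samples. The LRC values lay inside the non-LRC range. The difference was 0.32 (95% interval -0.41 to 1.05, limma), which includes a level 2-fold higher in LRC and leaves out one 2-fold lower. Leaving out non-LRC replicate 2 gave 0.59 and leaving out replicate 3 gave 0.06.

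The mouse has 2 genes for P-glycoprotein, the pump of rhodamine and many drugs. Abcb1a read 5.72, 5.25 and 5.74 in the non-LRC samples and 6.07, 6.08 and 7.11 in the LRC samples. All 3 LRC values lay above all 3 non-LRC values, with replicate 3 far above the others. The difference was 0.85 (SE 0.34, 95% interval 0.02 to 1.68, adjusted p = 0.998 by limma), a 1.80-fold higher level that did not pass. Without LRC replicate 3 it was 0.51, and 0.74 (SE 0.48) after adjustment for the hybridization controls. The other Abcb1a probe set lay near the floor of the array at a mean of 2.40 and differed by 0.12 (SE 0.19).

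Abcb1b read 6.50, 6.40 and 6.86 in the non-LRC samples and 6.78, 7.05 and 5.53 in the LRC samples. LRC replicates 1 and 2 were within or above the non-LRC range and replicate 3 was the lowest of all 6 arrays, while the same array was the highest for Abcb1a. The difference was -0.14 (SE 0.42), or 0.33 without LRC replicate 3. The paralogs are close in sequence, so some signal may be shared between their probes, and the difference between the 2 genes was not tested. Abcb4, their neighbour on chromosome 5 and the phosphatidylcholine exporter of bile, read 6.95, 5.14 and 5.95 in the non-LRC samples and 5.25, 5.69 and 4.72 in the LRC samples. Its groups overlapped, with non-LRC replicate 1 the highest array, and the difference of -0.79 (SE 0.50) ran from -1.23 to -0.32 over the alternatives tried.

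To place both P-glycoprotein genes in the genome, the 250 bases before the start of each are shown, from RefSeq sequences of GRCm38.p6. Capitals mark, on either strand, the GC box GGGCGG, the box named for its letters CCAAT, the TATA box form TATAAA, and the E-box form CACGTG. The window of Abcb1a (chr5:8566841-8567090, + strand) held none of the 4 motifs, no CpG and 40.4% G and C, the lowest share among the 42 windows of 35 ABC genes. The window of Abcb1b (chr5:8797897-8798146, + strand) held 1 GGGCGG and 2 CCAAT, 9 CpGs and 52.8% G and C.
Abcb1a: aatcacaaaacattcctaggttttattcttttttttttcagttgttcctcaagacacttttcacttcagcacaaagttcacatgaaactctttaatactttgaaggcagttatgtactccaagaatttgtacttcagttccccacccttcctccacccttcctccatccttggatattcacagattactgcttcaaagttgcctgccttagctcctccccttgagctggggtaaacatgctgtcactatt
Abcb1b: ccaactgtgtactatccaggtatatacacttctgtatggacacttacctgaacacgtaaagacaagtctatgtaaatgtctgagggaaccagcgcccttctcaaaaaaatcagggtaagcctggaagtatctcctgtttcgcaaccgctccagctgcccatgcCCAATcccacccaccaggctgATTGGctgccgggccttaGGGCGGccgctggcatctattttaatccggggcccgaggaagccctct
Among all 32851 windows of this length, 32.7% held GGGCGG, 33.8% CCAAT, 12.4% TATAAA and 6.02% CACGTG, and the median share of G and C was 52.4%. A match is a description of these letters only.

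Among the pumps of subfamily c, Abcc1, which exports glutathione conjugates and leukotriene C4, read 9.04, 8.89 and 9.03 in the non-LRC samples and 8.49, 9.09 and 8.58 in the LRC samples. LRC replicates 1 and 3, the arrays with bright controls, were the lower ones, and replicate 2 was the highest of the 6. The difference was -0.27 (SE 0.22), or 0.04 (SE 0.21) after adjustment for the controls, which leans on LRC replicate 2. The other Abcc1 probe set, nearly as bright at a mean of 8.55, did not share this pattern. It differed by 0.15 (SE 0.28), with LRC replicate 1 the highest array at 9.12 and LRC replicate 2 at 8.25. Abcc4, an exporter of cyclic nucleotides and prostaglandins, read 8.19, 6.28 and 5.91 in the non-LRC samples and 6.45, 6.68 and 6.74 in the LRC samples. Its difference of -0.17 (SE 0.59) rested on non-LRC replicate 1, without which it was 0.53 (SE 0.24). The same array had the highest values of the erythroid markers Klf1, Ermap and Rhag, but not of Epor, Slc4a1 and Hba-a1. They are given with the markers of other cells, and their part in the Abcc4 value was not tested. Abcc2, the exporter of conjugates into bile, read 2.44, 2.97 and 3.05 in the non-LRC samples and 3.80, 3.53 and 3.57 in the LRC samples. It had the smallest unadjusted p of the family, 0.0115 by limma, with a difference of 0.82 (95% interval 0.26 to 1.38, adjusted p = 0.998), and all 6 values lay at or below 3.80. Abcc3, Abcc5 and Abcc10 differed by -0.02, -0.46 and -0.22, with overlapping groups.

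**Figure D2:**
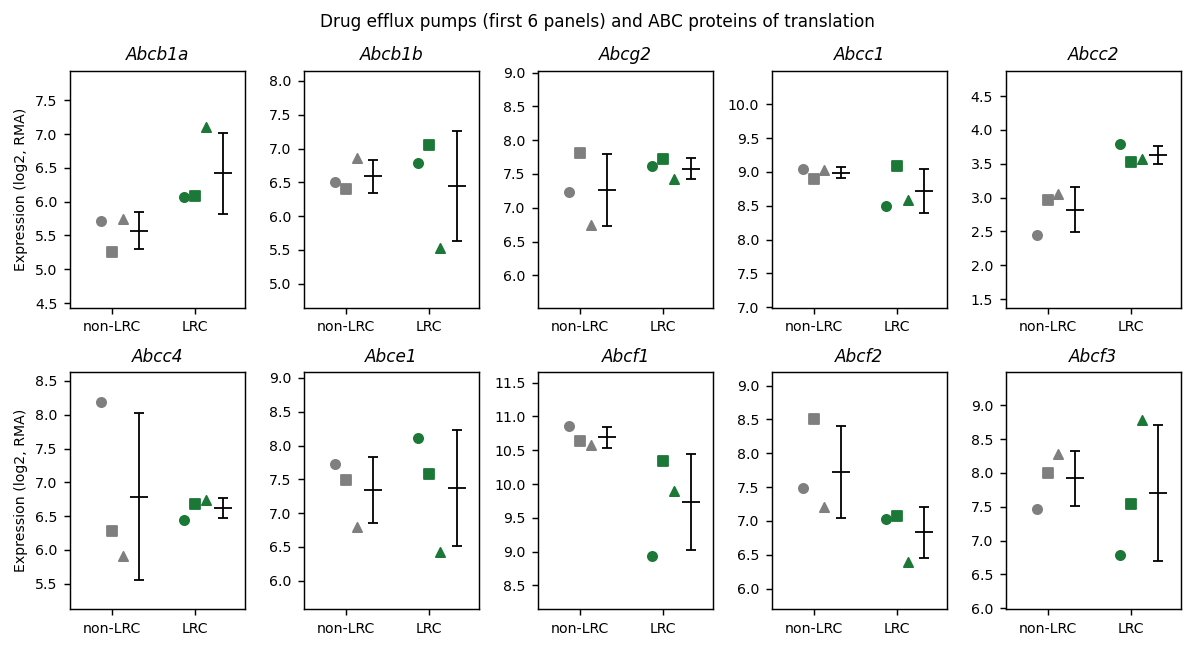
Expression values (y axis, log2; every panel spans the same range) of drug efflux pumps and of ABC proteins of translation in non-LRC (grey) and LRC (green), circles, squares and triangles for replicates 1 to 3, with mean and SD (n = 3) beside them. The groups are apart for Abcb1a, Abcc2, Abcf1 and Abcf2 and overlap in the other 6 panels.

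Of the transporters of cellular cholesterol and phospholipid, 5 of 7 had a higher mean in LRC, 0 passed the test and 0 had separated groups. Their median difference was 0.25 (all genes 0.03). Abca1 and Abcg1 had lower means in LRC, and Abca2, Abca3, Abca5, Abca7 and Abcg4 had higher ones. Abca1, which loads cholesterol onto apolipoprotein A-I and, with Abcg1, restrains HSC proliferation in mice, read 6.34, 5.43 and 5.84 in the non-LRC samples and 6.13, 6.28 and 3.86 in the LRC samples. LRC replicate 3 stood apart below the rest. The difference was -0.45 (SE 0.68), or 0.33 without that array. Its 2 other probe sets differed by 0.15 (SE 0.69) and by 1.28 (SE 0.53), the latter with LRC replicate 3 the highest of the 6 arrays at 6.48, so the probe sets of Abca1 gave opposite readings of the same array. Abcg1, the partner of Abca1 that loads high-density lipoprotein, read 7.35, 7.70 and 7.87 in the non-LRC samples and 7.51, 7.77 and 7.33 in the LRC samples. The groups covered the same range, and the interval of the difference was -0.66 to 0.44.

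Abca3, a phospholipid transporter of lamellar bodies, read 7.39, 7.27 and 7.81 in the non-LRC samples and 7.98, 7.97 and 7.63 in the LRC samples, a difference of 0.36 (SE 0.23). Abca2, an endolysosomal lipid transporter, read 5.35, 4.78 and 4.48 in the non-LRC samples and 5.25, 5.28 and 5.25 in the LRC samples, a difference of 0.39 (SE 0.26). The groups overlapped in both genes: LRC replicate 3 of Abca3 lay below non-LRC replicate 3, and non-LRC replicate 1 of Abca2 reached the LRC values. Abca5, Abca7 and Abcg4 differed by 0.76, 0.11 and 0.25, the first with a low value of 4.27 on non-LRC replicate 3.

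Exporters of bile and sterols act mainly in liver and gut, and 0 of the 4 measured were called. Abcb11, the bile salt export pump, read 2.35, 2.12 and 2.16 in the non-LRC samples and 2.44, 2.43 and 2.53 in the LRC samples. Abcg5, a sterol exporter that dimerizes with Abcg8, read 2.93, 2.59 and 2.66 in the non-LRC samples and 2.47, 2.10 and 2.43 in the LRC samples. Both had groups that did not overlap, in opposite directions (0.26, SE 0.17, and -0.39, SE 0.20), at values below the 40th percentile. Abcg8 was at 5.54 on LRC replicate 1 and at 4.33 to 4.68 on the other 5 arrays.

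Mitochondrial transporters read nearly level. Abcb10, an inner membrane transporter that supports haem synthesis, read 5.52, 5.64 and 5.43 in the non-LRC samples and 5.33, 5.06 and 5.64 in the LRC samples, a difference of -0.19 (SE 0.22) whose sign its other 2 probe sets shared. Abcb6, linked to porphyrin transport, and Abcb8, an inner membrane protein of iron export, differed by 0.02 (SE 0.25) and -0.15 (SE 0.38). All 3 intervals included 0, and those of Abcb10 and Abcb6 lay within 1 of it.

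Among transporters of peroxisomes and lysosomes 1 of 4 had a higher mean in LRC and 0 were called. Abcd3, an abundant peroxisomal importer of branched-chain and dicarboxylic acyl groups, read 7.64, 8.11 and 7.72 in the non-LRC samples and 6.68, 7.72 and 8.02 in the LRC samples. Only LRC replicate 1 lay below the non-LRC range, and without it the difference of -0.35 (SE 0.38) was 0.04. Abcd2, an importer of very long-chain acyl groups, read 3.75, 3.79 and 4.0 in the non-LRC samples and 4.27, 3.98 and 3.61 in the LRC samples, near the 40th percentile, with a difference of 0.11 (SE 0.23). Abcd4, of lysosomal cobalamin export, and Abcb9, a lysosomal peptide transporter, differed by -0.33 (SE 0.23) and -0.19 (SE 0.21).

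The ABC proteins of translation held the largest differences below 0. Abcf1, which binds initiation factor 2 and ribosomes, read 10.86, 10.63 and 10.58 in the non-LRC samples and 8.94, 10.34 and 9.90 in the LRC samples. Every LRC sample was under the non-LRC range, replicate 1 the farthest. The difference was -0.96 (SE 0.37, 95% interval -1.86 to -0.06, adjusted p = 0.998 by limma) and did not pass. Leaving out LRC replicate 1, the array with the brightest controls and the widest Gapdh gap, gave -0.57. Adjustment for the controls gave -0.34 (SE 0.32), and their part in the difference was not tested. LRC replicate 2 lay below the lowest non-LRC value, at 10.34 against 10.58. Of the 5 other Abcf1 probe sets, 4 lay above the 40th percentile and differed by 0.07, -0.04, -0.09 and -0.23 (SE 0.19 to 0.28), and the mean of all probe sets differed by -0.19.

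Abcf2, a ribosome-associated relative of Abcf1, read 7.48, 8.50 and 7.21 in the non-LRC samples and 7.03, 7.07 and 6.39 in the LRC samples. The groups did not overlap, although LRC replicate 2 lay only just below non-LRC replicate 3. The difference was -0.90 (SE 0.39, 95% interval -1.85 to 0.05). It was -0.52 without non-LRC replicate 2, the highest array, and -0.80 (SE 0.56) after adjustment for the controls. Its other probe set differed by -0.25 (SE 0.32). Abcf3, the relative of a yeast activator of the Gcn2 kinase, read 7.47, 8.0 and 8.28 in the non-LRC samples and 6.78, 7.54 and 8.78 in the LRC samples, so that LRC held both the lowest and the highest array. Abce1, which splits ribosomes after termination, read 7.73, 7.49 and 6.79 in the non-LRC samples and 8.11, 7.58 and 6.43 in the LRC samples. The difference of Abce1 was 0.03 with an interval of -1.13 to 1.20, which leaves changes of 2-fold either way within it.

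The sequences before the start of Abcf1 and Abcf2, the pair with separated groups, are shown with the same marks (RefSeq, GRCm38.p6, 250 bases). The Abcf1 window (chr17:35969751-35970000, - strand) held 1 CACGTG, 2 GGGCGG, 25 CpGs and 66.0% G and C. The Abcf2 window (chr5:24577468-24577717, - strand, the first of 2 listed) held 1 GGGCGG, 13 CpGs and 52.8% G and C.
Abcf1: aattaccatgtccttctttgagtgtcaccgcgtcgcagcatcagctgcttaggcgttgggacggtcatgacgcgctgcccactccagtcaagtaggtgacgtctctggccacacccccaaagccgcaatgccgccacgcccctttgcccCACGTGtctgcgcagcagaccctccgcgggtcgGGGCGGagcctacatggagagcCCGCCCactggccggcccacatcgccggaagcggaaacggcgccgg
Abcf2: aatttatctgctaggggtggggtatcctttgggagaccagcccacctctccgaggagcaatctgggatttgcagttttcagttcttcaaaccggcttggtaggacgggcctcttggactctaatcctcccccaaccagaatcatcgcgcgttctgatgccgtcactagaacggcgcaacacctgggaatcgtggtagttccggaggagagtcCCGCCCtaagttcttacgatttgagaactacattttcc
A CACGTG was in 4 of the 42 ABC windows, and GGGCGG in 20, where 6.02% and 32.7% of all windows held them. Counted by gene, these were the windows of 4 and of 17 of the 35 ABC genes.

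The 14 genes outside these roles had 3 members at or above the 40th percentile: Abca4, the retinal transporter; Abcc8, a sulfonylurea receptor; and Abcg3, a rodent relative of Abcg2. Abcg3 read 7.69, 8.36 and 9.28 in the non-LRC samples and 9.12, 8.37 and 8.45 in the LRC samples, a difference of 0.20 (SE 0.44) with its other probe set at 0.16. Abca4 and Abcc8 differed by -0.30 (SE 0.28) and 0.15 (SE 0.18). Among the 11 others Abca12, of epidermal lipid secretion, read 2.14, 2.00 and 2.09 in the non-LRC samples and 1.80, 1.70 and 1.86 in the LRC samples, a separation at the very floor. Abca9 had the highest difference of the family, 0.86 (SE 0.72), from LRC replicate 1 alone, which was at 5.04 while the other 5 arrays were at 2.31 to 2.51. The remaining 9 differed by -0.11 to 0.29.

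**Figure D3:**
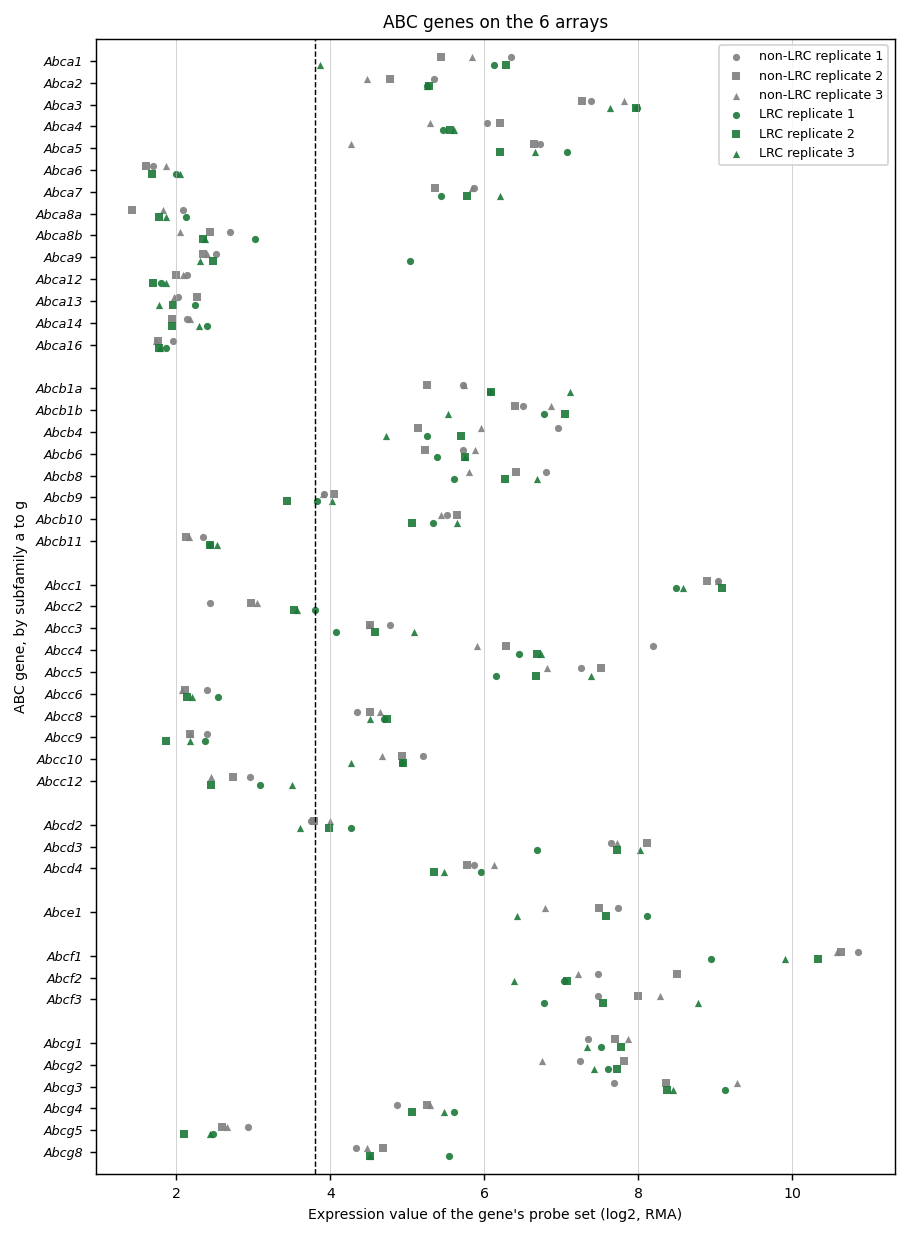
Values of the 45 ABC genes (x axis, log2) on the 6 arrays, genes in rows by subfamily, grey for non-LRC and green for LRC, with a marker shape per replicate and a dashed line at 3.80, the 40th percentile of all probe sets. For most genes the green and grey points mix, and for Abca9, Abcg8, Abcc4 and Abca1 a single array stands apart.

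Probe sets of the same gene gave a check that needs no other sample. Of 26 ABC genes with several probe sets, 13 had differences of both signs, and of 15 with 2 or more probe sets above the 40th percentile, 8 did. The gap between probe sets of a gene reached 1.73 for Abca1, 1.10 for Abcc5 and 1.06 for Abcf1. Signs held across all probe sets for Abcb10, Abcb8, Abcf2, Abcf3, Abcg1, Abcg3 and Abcg4 among those 15 genes, with differences of -0.90 to 0.25. Abcc5, an exporter of cyclic nucleotides with 10 probe sets, had its 3 brightest at -0.46, -0.56 and -0.74 and the other 7 at 0.01 to 0.35, 6 of these below the 40th percentile.

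**Figure D4:**
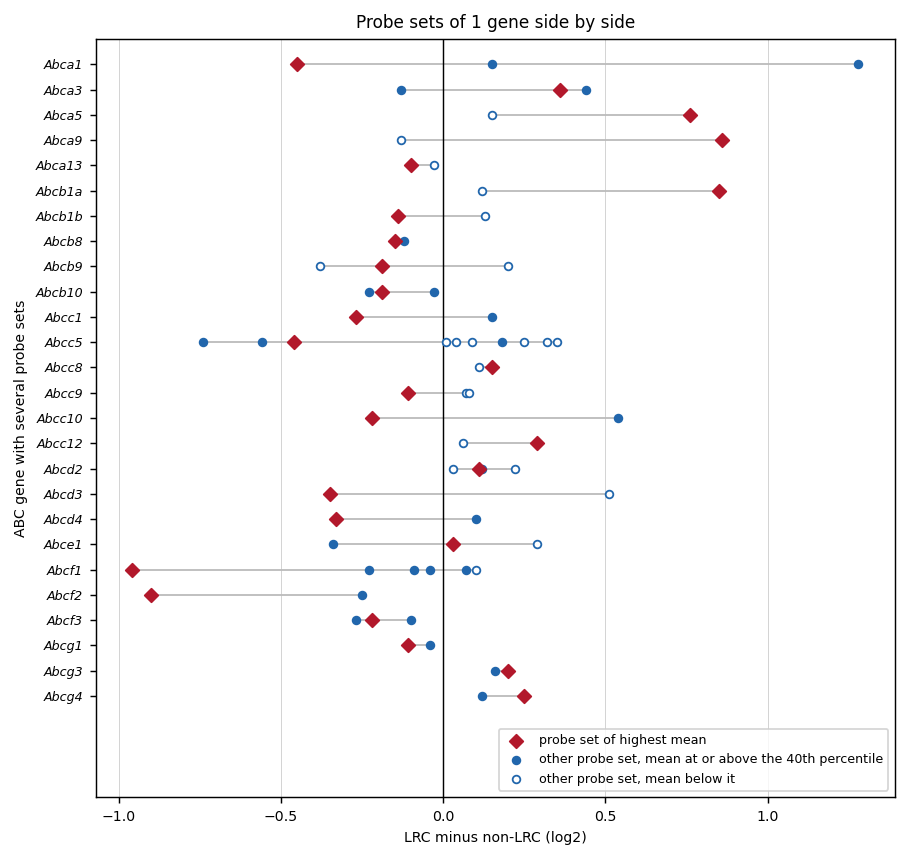
Difference between LRC and non-LRC (x axis, log2) of every probe set of the 26 ABC genes that have several, with the chosen probe set as a red diamond, others as blue points, open where their mean lies below the 40th percentile. Lines cross 0 for 13 genes, the chosen probe set of Abcf1 lies far below its others, and those of Abca1 spread from -0.45 to 1.28.

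Genes that work beside the ABC proteins were read from lists, and limma called 0 of their 106 measured members; 8 reached an unadjusted p under 0.05 (7.55%, where 3.75% of all genes did). Over all 18193 genes, 9984 had a higher mean in LRC and 8209 a lower one. Of 20 genes of cholesterol control 0 were called in either direction and 13 had a higher mean in LRC (median difference 0.11). Srebf1, a transcription factor of lipid synthesis and a target of the sterol receptors that also drive Abca1 and Abcg1, read 5.07, 5.72 and 4.65 in the non-LRC samples and 6.66, 6.23 and 6.13 in the LRC samples, a separated difference of 1.19 (SE 0.32, adjusted p = 0.998). Scap, a sterol-sensing escort protein, differed by -0.62 (SE 0.29) and Lpcat3, a phospholipid acyltransferase, by 0.54 (SE 0.40).

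Of 24 xenobiotic sensors and conjugating enzymes, 0 were called and 13 had a higher mean. Ahr, the aryl hydrocarbon receptor, differed by 1.38 (SE 0.59), its partner Arnt by 0.59 (SE 0.27) and Nqo1, a quinone reductase, by -0.89 (SE 0.46). All 3 had overlapping groups. Of the haem and iron-sulfur genes 16 of 22 had a lower mean and 0 were called. An unadjusted p under 0.05 by limma was reached by 2 that were higher and 3 that were lower (3.75% of all genes reached it). The groups did not overlap for 3 that were higher and 1 that was lower, against 4.71% and 3.62% of all genes. Hscb, a co-chaperone of iron-sulfur cluster transfer, differed by 1.52 (SE 0.39), Uros, an enzyme of haem synthesis, by -1.12 (SE 0.39), and Nfs1, the cysteine desulfurase, by -1.49 (SE 0.54), a sign that its 2 other probe sets did not share.

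Peroxisome genes had 14 of 20 at a higher mean and 0 called, with Pex26, an import factor, at 1.00 (SE 0.27), Amacr, a racemase, at 0.51 (SE 0.24), and Hsd17b4, a beta-oxidation enzyme, at -0.59 (SE 0.30). Ribosome recycling and translation stress genes had 11 of 17 at a lower mean and 0 called. Eif6, which keeps ribosomal subunits apart, differed by -0.50 (SE 0.20), and its other probe set was of like sign. Eif2ak2, a kinase that halts translation, differed by -0.42 (SE 0.28) and Eif2s2, a subunit of the factor that Abcf1 binds, by -0.28 (SE 0.20). The ABC proteins with names outside the pattern, Tap1, Tap2 and Cftr, differed by -0.33, -0.30 and -0.81, with overlapping groups.

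Other marrow cells carry ABC genes too, so their markers were read on the same arrays. Macrophage markers had array means of 3.83 to 4.13 in LRC and 3.72 to 4.06 in non-LRC over 9 genes, and 5 of the 9 lay below the 40th percentile; Lyz2, at 7.75 to 9.72, did not. Erythroid markers (6 genes) were at 3.34 to 3.98 and 3.21 to 4.49, mast cell and basophil markers (6 genes) at 2.92 to 3.61 and 3.04 to 3.27, and B and T cell markers (7 genes) at 3.78 to 4.03 and 3.83 to 4.16. Mcpt8 of the mast cell and basophil list was at 5.32 and 5.65 on LRC replicates 1 and 3 and at 3.37 to 4.18 on the other 4 arrays. Cd79b of the B and T cell list was at 5.52 to 7.17. Within the erythroid list, non-LRC replicate 1 was the highest array for Klf1, Ermap and Rhag, but not for Epor, Slc4a1 and Hba-a1. Klf1, an erythroid transcription factor, was at 6.76 there, at 6.21 on LRC replicate 1 and at 2.93 to 4.24 on the other 4 arrays. Ermap, an erythroid membrane protein, was at 5.27 there and at 3.18 to 3.74 elsewhere, and Rhag, of the Rh complex, at 2.84 against 1.82 to 2.24. Epor was highest on non-LRC replicate 2, at 6.45 against 5.67 on non-LRC replicate 1. Slc4a1 was highest on LRC replicate 1, at 3.80 against 3.42. Hba-a1, below the 40th percentile, was at 3.15 to 3.30 in LRC and at 2.86 to 3.00 in non-LRC. Endothelial markers (6 genes), some of which HSCs express themselves, were at 4.70 to 5.90 and 5.35 to 6.22, and 5 of the 6 were lower on average in LRC. All of these ranges of array means overlapped between the groups, and 0 markers were called by limma, nor did any reach an unadjusted p under 0.05. Their part in the ABC values was not tested.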

How the data were processed

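RNA of 6 sorted samples was amplified in 2 rounds and hybridized to 1 expression array each, per the labels' protocols. Each deposited value is the log2 expression of a probe set in a sample. Per the submitters' processing notes the authors used RMA, whose version they leave out; the log base, taken as 2, rests on the range of the values. Since RMA equalizes arrays, cells with less RNA in all would not show. Precision is limited by the number of arrays.

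Of 45101 probe sets, 64 controls were left out and 45037 tested; 34945 named 1 gene. Symbols came from the platform annotation and were brought up to date by gene identifier with a RefSeq table of GRCm38.p6, used for names and neighbours; promoter windows came from RefSeq in the same build. Columns of other samples numbered 0. LRC and non-LRC were compared by lmFit and eBayes of limma 3.58.1 (R 4.3.3). The p-values were adjusted by Benjamini-Hochberg over all probe sets at a threshold of 0.05. The fit was first run on simulated data with independent noise, a check of the code alone. Errors of differences are limma's moderated standard errors.

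The members, lists and alternatives were chosen with earlier results of these data known. Values in every sample are given for 14 measured genes listed by role, the 10 of smallest p and those of a role list with separated groups, and for single genes named besides because 1 array stood apart; up to 3 genes by smallest p are named of each list. Alternatives were further quantile normalization, median centring, the low filter, moderation, a replicate block, array weights, covariates, array removal, looser thresholds and the mean of all probe sets.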

Additional observations from a re-analysis of the deposited data

How the results depend on the processing

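Under 17 of the 18 alternatives ABC genes called stayed at 0; an unadjusted p under 0.05 gave 3. Genes with separated groups numbered 3 higher and 4 lower in LRC; leaving out 1 array at a time gave 3 to 7 higher and 4 to 7 lower (6.67% to 15.6% and 8.89% to 15.6% of the family; 8.25% to 16.8% and 6.93% to 9.84% of all genes), and fewer arrays separate more easily by construction. With LRC replicates 1 and 3 both left out they numbered 7 and 11 (15.6% and 24.4%, against 19.1% and 28.7% of all genes). With low probe sets left out they numbered 1 and 2 of 31 (3.23% and 6.45%, against 4.42% and 4.47%), and with the mean of all probe sets 2 were lower (4.44%, against 3.19%). The median difference over ABC genes was -0.14 with low probe sets left out. Of 332 values of 21 named genes, 28 had the opposite sign, the cause was not tested, and 12 genes kept their sign throughout.

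With array weights Abcc4 was at 0.18, Abcd2 at -0.03, Abce1 at -0.18 and Abcf3 at 0.05. After adjustment for the hybridization control level Abcb1b was at 0.15, Abcc1 at 0.04, Abcd3 at 0.09, Abce1 at -0.16, Abcf3 at 0.07 and Abcg1 at 0.10. This level was high on LRC replicates 1 and 3 and on no non-LRC array, so level and group cannot be told apart. With LRC replicates 1 and 3 both left out Abca1 was at 0.41, Abcb1b at 0.46, Abcc1 at 0.11 and Abcg1 at 0.13. With the mean of all probe sets Abca1 was at 0.33, Abcd3 at 0.08 and Abce1 at -0.0049. Leaving out 1 array at a time gave Abca1 values from -0.88 to 0.33, Abcb1b values from -0.43 to 0.33, Abcc4 values from -0.61 to 0.53, Abcd2 values from -0.05 to 0.28, Abcd3 values from -0.63 to 0.04, Abce1 values from -0.33 to 0.51, Abcf3 values from -0.75 to 0.24 and Abcg1 values from -0.25 to 0.01.

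With the replicate number as a block, 0 ABC genes were called. The SE was smaller for some genes (Abcf2, 0.26 against 0.39 without the block) and larger for others (Abcc2, 0.26 against 0.23). Deviations of same-numbered arrays correlated at 0.0798, 0.141 and 0.0811, each array best with its own number. Replicate 2 of non-LRC and of LRC also shared high Xist (11.65 and 11.58) and were each other's closest match, at r = 0.970. These are hints from the data only, so the numbers were not taken as pairs.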
